A study of Mus musculus with 16 samples.

Results

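Se is the switch region in front of the exons for the constant part of IgE in Igh, the mouse immunoglobulin heavy chain locus. Its members here are the 405 junctions on chromosome 12 that the authors labelled Se, of 141168 junctions in 16 libraries and of 33479 outside chromosome 15. All 405 lay within 2837 bases, at chr12:114512619-114515455 on mouse build mm9, and 11 of the 16 libraries held at least 1. The rule for members used only the authors' label, and not the counts, strands or positions of the junctions. Se itself was chosen as the region with earlier results of these data known.

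The method, HTGTS (high-throughput, genome-wide translocation sequencing), reads the genomic sequence (the prey) joined to a chosen break (the bait). Breaks were made at 25 I-SceI sites that had been placed within Myc intron 1, on 1 allele on chromosome 15, and I-SceI came from a retrovirus that also carries GFP. All groups carried this bait, in cultured splenic IgM+ B cells of 129sv mice aged 6 to 8 weeks. The kinase ATM responds to double-strand breaks in DNA, the ATM-/- mice lack it, and KU55933 inhibits it. The groups were the libraries labelled ATM-/- and stimulated with RP105 (n = 3), those labelled WT with the same stimulus (n = 3), ATM-/- with anti-CD40 and IL4 (n = 3), WT with anti-CD40, IL4 and 10 µM KU55933 (n = 3), and WT with anti-CD40 and IL4 (n = 4). Under anti-CD40/IL4 cells were infected after 24 h and harvested at day 4, and under RP105 after 48 h and at day 5, with KU55933 present from infection. The labels do not say whether replicates came from separate mice, so p-values measure the spread between libraries.

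In class switch recombination the enzyme AID (activation-induced cytidine deaminase) deaminates cytosines in the transcribed donor region Smu and in an acceptor region, and the resulting breaks are joined so that the cell changes from IgM to another class. Anti-CD40 with IL4 drives switching to IgG1, through Sg1, and to IgE, through Se. The motif AGCT, which reads the same on both strands, is a preferred AID site and is repeated in switch regions. Igh is transcribed towards the centromere, which is the minus strand of mm9, so the centromeric end of Se is its downstream end, next to the IgE exons.

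Libraries held 586 to 5604 junctions outside chromosome 15, the denominator of the shares given here. Under anti-CD40/IL4 these were 6818 of 21797 junctions in ATM-/-, 14642 of 45827 in KU55933 and 4457 of 25851 in WT libraries. The denominator was thus a smaller part of all junctions in WT libraries, and its part in the differences of Se share was not tested. Under anti-CD40/IL4 the junctions centromeric of Igh on chromosome 12 made up 7.55% to 10.3% of that denominator in ATM-/- libraries and 2.6% to 4.07% in WT libraries. Under RP105 the order was opposite, with 3.63% to 5.71% in the libraries labelled ATM-/- and 11.3% to 12.3% in those labelled WT. Junctions do not measure ATM itself, so the genotype labels could not be checked. Any direction between the 2 RP105 groups depends on them. So do the comparisons of RP105 with anti-CD40/IL4 within a label, and that of the genotype effects under the 2 stimuli. For RP105 libraries, WT and ATM-/- name the label only. The anti-CD40/IL4 libraries of ATM-/- and WT cells were read on a 454 sequencer and those with KU55933 on a MiSeq, so the inhibitor and the sequencer cannot be told apart for KU55933. All RP105 libraries were read on a MiSeq too. No junction carried the name of a T cell receptor gene, which does not measure how pure the B cells were. Smu, Sg1 and Se held 795, 776 and 405 junctions, mostly from anti-CD40/IL4 libraries. All switch regions together held 38 junctions in the RP105 libraries labelled WT and 21 in those labelled ATM-/-. Replicate 2 of the latter held 1, so these counts say little of the cells under RP105. The span of Se held no junction with another label, and only 3 junctions with a label joining Se to Sg1, Sg2b and Sg2a were left out of the members.

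The mm9 bases of Se were rebuilt from the prey alignments in the files, which covered 2587 of 2866 bases with 0 conflicting bases. The fragments below are cut at GGCC, the site of HaeIII, the enzyme used to cut the genomic DNA, so each is roughly what 1 ligated end could reach. Some prey alignments ran past a site, such as 8 on the plus strand that ended at chr12:114515142, beyond the site at 114515130. The first is the one with most junctions per base of the fragments that were fully rebuilt, with 73 junctions in 254 bases, and the second is the one with fewest AGCT, with 22 junctions in 218 bases. The third sequence is the 50-base window with most junctions, 32 from 10 libraries. All are on the plus strand, 5′ to 3′, with AGCT in capitals.
chr12:114514116-114514369: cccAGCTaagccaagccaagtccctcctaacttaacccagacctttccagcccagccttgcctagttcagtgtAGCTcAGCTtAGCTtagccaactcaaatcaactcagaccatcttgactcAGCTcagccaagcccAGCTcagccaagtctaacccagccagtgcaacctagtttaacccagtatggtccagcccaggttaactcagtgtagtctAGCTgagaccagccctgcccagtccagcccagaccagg
chr12:114515131-114515348: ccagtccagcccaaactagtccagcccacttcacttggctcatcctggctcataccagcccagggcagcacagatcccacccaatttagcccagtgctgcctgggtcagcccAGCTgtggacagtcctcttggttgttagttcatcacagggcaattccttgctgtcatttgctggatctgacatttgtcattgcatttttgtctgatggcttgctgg
chr12:114514512-114514561: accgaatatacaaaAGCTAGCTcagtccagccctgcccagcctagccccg
The first fragment holds 7 AGCT and the second 1.

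AGCT occurred 87 times in the rebuilt bases of Se, or 3.36 per 100 bases, against 5.22 in Smu and 1.44 in Sg1, rebuilt in the same way, and 0.514 per 100 bases in all prey sequence outside chromosomes 12 and 15. On the transcribed-direction strand, the minus strand, GAGCT occurred 65 times in Se and 4 times on the opposite strand, and GGGCT 48 times and 0 times. GAGCT contains AGCT, so their counts overlap. In 3452080 bases of prey outside chromosomes 12 and 15, GAGCT occurred 4213 times and GGGCT 4319 times on the minus strand. In Smu GAGCT occurred 189 times on the minus strand and GGGCT 33 times, so per base Se was the richer of the 2 in GGGCT. C made up 35.4% and G 18.3% of the plus strand of Se, and 34.5% and 18.7% of that of Smu.

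As a share of junctions outside chromosome 15, Se was lower in every ATM-/- than in every WT library under anti-CD40/IL4. The test over all genes did not pass. ATM-/- libraries held 24, 37 and 16 Se junctions, or 1.09%, 1.36% and 0.837% of junctions outside chromosome 15. WT libraries held 73, 34, 61 and 20, or 5.59%, 3.74%, 4.04% and 2.74%. The groups did not overlap, and the means were 1.10% ± 0.263 (SD, n = 3) in ATM-/- and 4.02% ± 1.18 (SD, n = 4) in WT libraries, a ratio of 0.273. The exact 95% binomial interval, which covers counting error only, was 0.962% to 1.87% for the highest ATM-/- library and 1.68% to 4.19% for the lowest WT library, so those 2 intervals overlapped. Over all junctions, chromosome 15 included, the mean shares were 0.344% in ATM-/- and 0.698% in WT libraries. On that denominator the groups overlapped, at 0.285% to 0.438% in ATM-/- and 0.428% to 1.06% in WT libraries.

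The exact permutation test over libraries, two-sided, gave p = 0.0571 for the share outside chromosome 15, and 0.300 after adjustment over 21 such tests of these data. With 3 against 4 libraries its smallest possible p is 0.0286. In edgeR's quasi-likelihood test over 162 genes with at least 10 junctions, the log2 fold change of Se was -1.87 ± 0.54 (SE), with an adjusted p of 0.090. That test called 0 of 162 genes (0%), with 8 at an unadjusted p under 0.05, and DESeq2 called 0 with 0 at that level. Se was called by edgeR with library sizes taken beyond 1 Mb of the break (adjusted p = 0.0370), with genes of at least 30 junctions (0.0163) and in a fit of these 2 groups alone (1.36e-05), and the fold change was -1.13 with TMM factors and -1.05 in DESeq2. Of the 162 genes, 4 (2.47%) had a lower share in every ATM-/- library than in every WT library: Se, Smu, Sg1 and Ksr2, the last of them named after its values were seen.

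The 2 sequencing runs that held a library of both groups gave the same direction. In one, the ATM-/- library had 1.36% and the WT library 4.04%, a log2 ratio of -1.57. In the other, the ATM-/- library had 0.837% and the WT library 2.74%, a log2 ratio of -1.71. With the run as a block, edgeR gave -1.62 ± 0.56 (SE) with an adjusted p of 0.8.

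**Figure D1:**
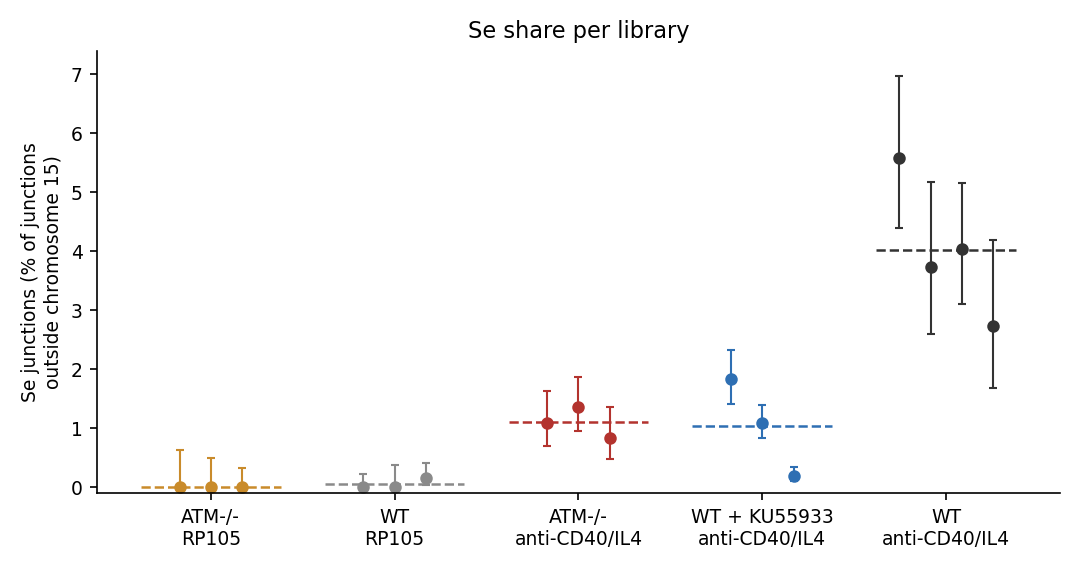
Share of junctions outside chromosome 15 that lie in Se (y axis, %) for each library (points) with exact 95% binomial intervals (bars) and the group mean (dashed line), by group. All WT anti-CD40/IL4 libraries, from 2.74% to 5.59%, sit above all other libraries, of which the highest is a KU55933 library at 1.83%.

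Se was called lower with KU55933 than without it. The KU55933 libraries held 66, 59 and 11 Se junctions, or 1.83%, 1.09% and 0.196%. The mean was 1.04% ± 0.818 (SD, n = 3) with KU55933 and 4.02% ± 1.18 (SD, n = 4) without it, and the groups did not overlap. The log2 fold change in edgeR was -1.98 ± 0.53 (SE) with an adjusted p of 0.0305, and Se was the only gene called of 162 (0.617%). The exact permutation test gave p = 0.0571 and an adjusted p of 0.300. Over all junctions, chromosome 15 included, the mean shares were 0.344% with KU55933 and 0.698% without it. On that denominator the groups overlapped, at 0.0602% to 0.627% with KU55933 and 0.428% to 1.06% without it. Of the 162 genes, 5 (3.09%) had a lower share in every KU55933 library: Se, Smu, Ksr2, Ddah1 and Kirrel3, the last 3 named after their values were seen. A higher share in every KU55933 library was more common, with 27 of the 162 genes. The KU55933 libraries were deeper, with 3606 to 5604 junctions outside chromosome 15 against 731 to 1509 in WT libraries. The part of depth in these counts was not tested.

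The call for KU55933 rested on single libraries. The adjusted p in edgeR was 0.210 without WT replicate 1, 0.0871 without WT replicate 3, 0.260 without KU55933 replicate 2 and 0.0779 without KU55933 replicate 3, where the log2 fold change was -1.50. It was 0.116 with TMM factors, at -1.31, where 10 genes were called, all higher with KU55933, and 0.799 in DESeq2, at -1.23.

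ATM-/- and KU55933 libraries did not separate from each other. Their means were 1.10% ± 0.263 (SD, n = 3) in ATM-/- and 1.04% ± 0.818 (SD, n = 3) in KU55933 libraries, and the ranges overlapped. The log2 fold change of ATM-/- over KU55933 was 0.11 ± 0.55 (SE) with an adjusted p of 0.958 in edgeR, and 0 of 162 genes (0%) were called, with 17 at an unadjusted p under 0.05, against 0 and 4 in DESeq2. The sign turned without ATM-/- replicate 2 (-0.08) or KU55933 replicate 3 (-0.38), and an SE of this size leaves room for a difference in either direction. These 2 groups were both set against the same WT libraries.

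Under RP105 Se was nearly empty, and Smu and Sg1 were sparse too. Smu and Sg1 held 17 and 6 junctions in the libraries labelled WT, and 13 and 5 in those labelled ATM-/-. Se made up 4 of 38 switch region junctions in the former and 0 of 21 in the latter. The libraries labelled ATM-/- held 0 Se junctions in 586, 744 and 1156, where a count of 3 would be 0.512%, 0.403% and 0.260%. Those labelled WT held 0 in 1624, 0 in 956 and 4 in 2496, and the last is 0.160% with an interval of 0.0437% to 0.410%. Over the 3 libraries labelled ATM-/- a count of 3 is 0.121%, and over those labelled WT the share was 0.0788%, so a difference between them was not detectable at this depth (exact permutation p = 1). Here edgeR called 0 of 162 genes (0%), with 4 at an unadjusted p under 0.05, against 0 and 1 in DESeq2.

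Against the same genotype label under anti-CD40/IL4, the share was lower with RP105. In the libraries labelled WT the means were 0.0534% ± 0.0925 (SD, n = 3) with RP105 and 4.02% ± 1.18 (SD, n = 4) with anti-CD40/IL4. The log2 fold change in edgeR was -5.65 ± 0.79 (SE) with an adjusted p of 1.85e-10, and 3 of 162 genes (1.85%) were called, Se, Sg1 and Smu, all lower with RP105. The exact permutation test gave its smallest possible p of 0.0286, and 0.300 adjusted. Of the 162 genes, 6 (3.7%) had a lower share in every RP105 library labelled WT: Se, Sg1, Smu, Arid5a, Il21r and Pim1, with Arid5a named after its values were seen.

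Of the libraries labelled ATM-/-, those with RP105 held 0 Se junctions and those with anti-CD40/IL4 held 77 in 6818. With 3 counts over the RP105 group as the floor, the pooled share was 9.36-fold lower with RP105. That ratio takes no account of counting error, so it is not a lower bound. The exact binomial intervals of the pooled shares were 0% to 0.148% with RP105 and 0.892% to 1.41% with anti-CD40/IL4. The adjusted p in edgeR was 6.91e-04, and 0.0710 without replicate 3 of the RP105 libraries labelled ATM-/-, the deepest of them. The exact permutation test gave its smallest possible p of 0.1, and 0.343 adjusted. In edgeR 3 of 162 genes (1.85%) were called, Se and Sg1 lower with RP105 and Mmp24 higher, the last named after its values were seen. A lower share in every library was found for 22 of 162 genes (13.6%), so that pattern alone is common in this comparison. Stimulus, day of harvest and sequencer (MiSeq for RP105, 454 for anti-CD40/IL4) differed together in both comparisons and cannot be told apart. The difference between the genotype effects under the 2 stimuli had an adjusted p of 0.782 in edgeR, with 0 of 162 genes called (0%), 12 at an unadjusted p under 0.05, and 0 and 6 in DESeq2.

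The other main regions of the switch reaction had lower mean shares in ATM-/- than in WT libraries too, while Sg1 had a similar mean with and without KU55933. None of these differences passed the test. Smu, the donor region, had 1.57% ± 0.529 (SD, n = 3) of junctions outside chromosome 15 in ATM-/-, 3.07% ± 0.240 (SD, n = 3) in KU55933 and 4.81% ± 0.973 (SD, n = 4) in WT libraries. Sg1, the IgG1 acceptor, had 1.63% ± 0.0309 in ATM-/-, 3.44% ± 0.867 in KU55933 and 3.05% ± 1.11 in WT libraries, with the same n. In edgeR the log2 fold change of ATM-/- over WT was -1.60 (adjusted p = 0.440) for Smu and -0.89 (0.735) for Sg1, and that of KU55933 over WT was -0.64 (0.570) and 0.19 (0.876).

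Se made up 27.0%, 26.1% and 22.2% of the switch region junctions of the ATM-/- libraries. It made up 24.4%, 12.5% and 2.87% with KU55933, and 44.8%, 35.4%, 35.5% and 20.4% in WT libraries. The denominator counts Smu, Sg3, Sg1, Sg2b, Sg2a, Se and Sa, and was 72 to 142 junctions in ATM-/-, 271 to 473 in KU55933 and 96 to 172 in WT libraries. The means were 25.1% ± 2.52 (SD, n = 3) in ATM-/-, 13.2% ± 10.8 (SD, n = 3) in KU55933 and 34.0% ± 10.1 (SD, n = 4) in WT libraries. WT replicate 4 lay below all ATM-/- libraries, so the groups overlapped.

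The exact permutation test gave p = 0.257 for ATM-/- against WT (difference -8.94 percentage points), 0.0857 for KU55933 against WT (-20.8) and 0.200 for ATM-/- against KU55933 (11.8). Adjusted values were 0.450, 0.343 and 0.420. Single libraries moved these differences: that of ATM-/- from WT was -5.35 without WT replicate 1 and -13.5 without WT replicate 4, and that of ATM-/- from KU55933 was 6.67 without KU55933 replicate 3. Within the runs that held both groups, Se was 26.1% of the switch region junctions in the ATM-/- and 35.5% in the WT library of one run, and 22.2% in the ATM-/- and 20.4% in the WT library of the other, so the direction was not the same in both.

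Se junctions per Sg1 junction numbered 0.686, 0.822 and 0.516 in ATM-/- libraries and 0.733, 0.259 and 0.0539 with KU55933. In WT libraries they numbered 2.43, 1.79, 1.22 and 0.606. KU55933 replicate 3 held 11 Se junctions beside 204 in Sg1 and 158 in Smu. It was read in a sequencing run of its own, while KU55933 replicates 1 and 2 shared another run. The run and the library cannot be told apart here. Smu was 2.82% of the junctions outside chromosome 15 of replicate 3, the lowest of the KU55933 libraries, and Sg1 was 3.64%, between the other 2.

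**Figure D2:**
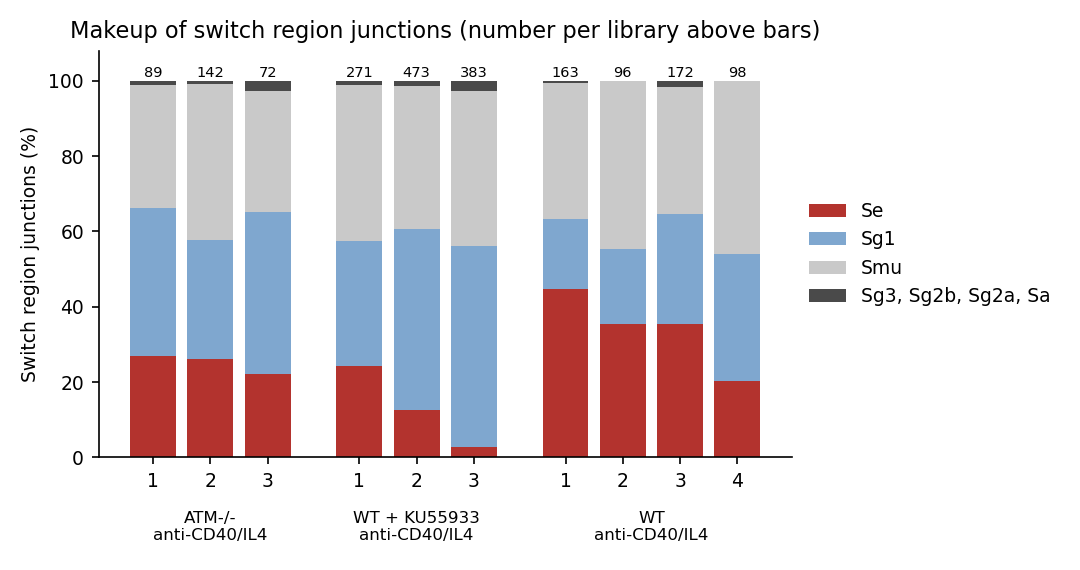
Makeup of the junctions in switch regions (y axis, %) for each anti-CD40/IL4 library (bars, numbered by replicate), split into Se, Sg1, Smu and the other 4 regions, with the number of switch region junctions above each bar. The Se part runs from 22.2% to 27.0% in ATM-/-, from 2.87% to 24.4% in KU55933 and from 20.4% to 44.8% in WT libraries.

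The minor acceptor regions were sparse beside Se. Sg3, Sg2b, Sg2a and Sa held 2, 2, 0 and 0 junctions in ATM-/-, 2, 4, 5 and 9 in KU55933, and 0, 0, 2 and 2 in WT libraries under anti-CD40/IL4. Of the AID off-target genes Il4ra, Il21r, Pim1, Cd83, Pax5, Bcl6 and Aff3, 0 of 7 were called in either direction in any of the 7 contrasts of edgeR. Over all genes, 0 to 3 of 162 (0% to 1.85%) were called per contrast, so a lack of calls among 7 does not show them unchanged. For RP105 over anti-CD40/IL4 in WT, Il4ra, Pim1 and Cd83 had adjusted p of 0.0695, 0.0709 and 0.0709 in edgeR, all lower with RP105. The genes whose share ranked the libraries most as Se did were Smu (Spearman's rho of 0.845 over 16 libraries), Rab35 (0.806) and Sg1 (0.750). The libraries share a stimulus in sets, with Se and Rab35 at or near 0 in all 6 RP105 libraries. Rab35 had only 10 junctions and was at 0 in 9 libraries.

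Along the region most junctions lay in the middle and telomeric parts. Bins of 250 bases with at least 20 junctions ran from chr12:114513500-114515249, and held 352 of the 405 junctions (86.9%). The fullest bin, chr12:114514500-114514749, held 80 (19.8%): 15 of 77 in ATM-/-, 23 of 136 in KU55933 and 42 of 188 in WT libraries. The bin with most junctions was not the one with most AGCT: it held 11 AGCT, and chr12:114513500-114513749, with 37 junctions, held 14, the most of any bin.

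The median junction lay 1611.5, 1695 and 1625 bases from the most centromeric Se junction in ATM-/- libraries, 1635.5, 1627 and 1936 with KU55933, and 1807, 1799.5, 1720 and 1710.5 in WT libraries. Every ATM-/- library was thus centromeric of every WT library, and KU55933 overlapped both. The difference of ATM-/- from WT was -115 bases (exact permutation p = 0.0286, the smallest this design can give, and 0.300 adjusted). For KU55933 against WT it was -26.4 bases (exact permutation p = 0.8, adjusted 0.933). For ATM-/- against KU55933 it was -89.0 bases (exact permutation p = 0.5, adjusted 0.656).

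At the centromeric, downstream end the profiles looked unlike. The first 4 bins, chr12:114512500-114513499, held 14 of 77 Se junctions in ATM-/-, 24 of 136 in KU55933 and 8 of 188 in WT libraries. This window was chosen after the profile was seen, so no test is given. By library it held 7 of 24, 7 of 37 and 0 of 16 in ATM-/-, 12 of 66, 11 of 59 and 1 of 11 in KU55933, and 5 of 73, 1 of 34, 1 of 61 and 1 of 20 in WT libraries. Shares of 18.2% to 29.2% of Se junctions thus occurred in 2 ATM-/- and 2 KU55933 libraries, while ATM-/- replicate 3, with 16 junctions and an interval up to 20.6%, had none there and WT libraries had 1.64% to 6.85%.

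As a share of all junctions outside chromosome 15, the same window held 0.319%, 0.258% and 0% in ATM-/-, 0.333%, 0.203% and 0.0178% in KU55933, and 0.383%, 0.110%, 0.0663% and 0.137% in WT libraries. On that scale the groups overlapped. Of the 46 junctions in the window, 38 were on the minus strand.

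**Figure D3:**
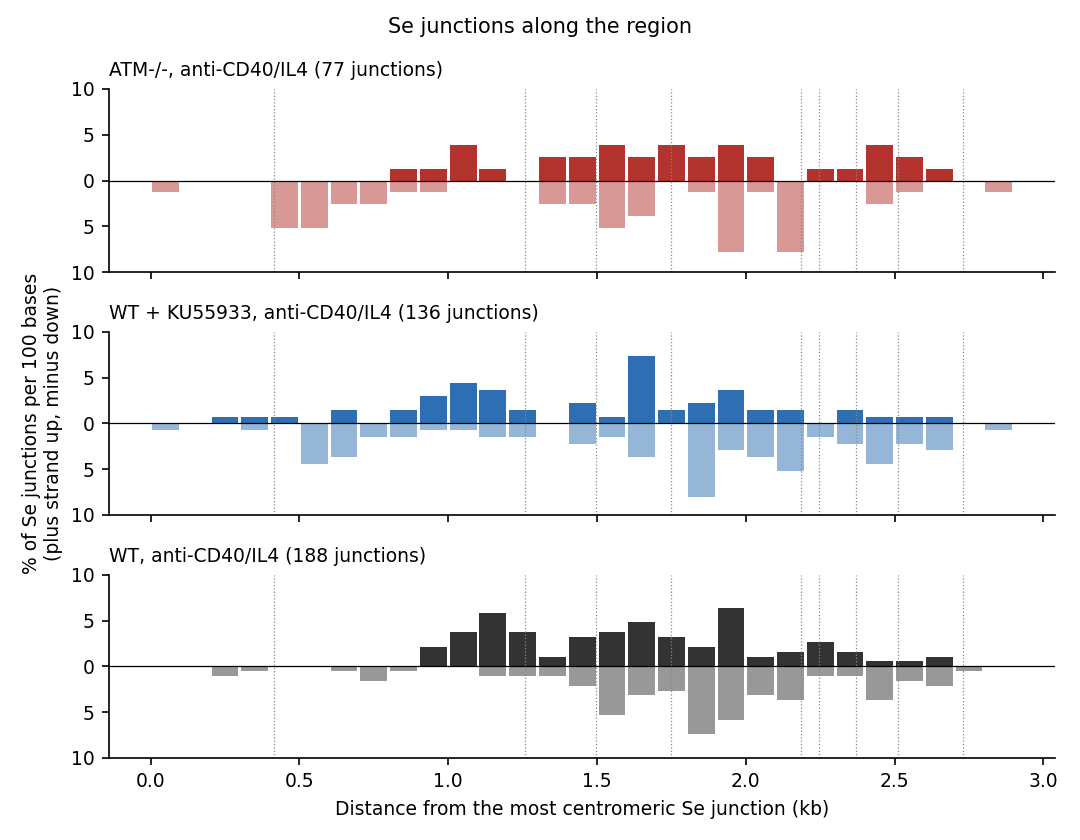
Se junctions along the region for the 3 anti-CD40/IL4 groups, as % of the group's Se junctions per 100 bases (y axis, plus strand up and minus strand down), by distance in kb from the most centromeric Se junction, with dotted lines at HaeIII sites seen in the rebuilt bases. Minus-strand junctions near the first dotted line are seen in ATM-/- and KU55933 and few in WT; the window at this end held 14 of 77, 24 of 136 and 8 of 188 junctions in ATM-/-, KU55933 and WT.

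A plus-strand prey runs from the junction towards the telomere, that is, towards Smu, and a minus-strand prey runs towards the IgE exons, so the strand tells which side of the Se break was joined to Myc. Both sides were used: 185 junctions were plus and 220 minus, or 45.7% plus. The plus share was 29.2%, 45.9% and 56.2% in ATM-/-, 43.9%, 42.4% and 27.3% in KU55933, and 49.3%, 38.2%, 52.5% and 55.0% in WT libraries, and all groups overlapped. Exact permutation tests gave p = 0.571 for ATM-/- against WT (difference -4.96 percentage points), 0.143 for KU55933 against WT (-10.9) and 0.5 for ATM-/- against KU55933 (5.93), with adjusted values of 0.706, 0.375 and 0.656.

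The strand varied with position beside the HaeIII sites. The far end of the prey, opposite the junction, ended in a HaeIII half-site for 341 of 405 junctions (84.2%), and the 5 most used ends held 235 of the 405 (58.0%). Prey lengths ran from 30 to 398 bases. The longest stretch without GGCC in the rebuilt bases, chr12:114513036-114513877 of 842 bases, held 54 plus junctions, at a median of 189 bases from its telomeric site, and 42 minus junctions, at a median of 260.5 bases from its centromeric site. Its bin chr12:114513500-114513749 held 33 plus and 4 minus junctions, and chr12:114513250-114513499 held 4 plus and 15 minus. The part of the cut sites in the shape of the profile was not tested. The half-site share was 70.7% of MiSeq and 91.3% of 454 junctions.

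The share of Se junctions inside AGCT was above that of positions of the region at large. The bond at the junction fell within AGCT for 75 of the 400 junctions with a rebuilt neighbour base (18.8%), against 261 of 2580 rebuilt positions (10.1%). Within the 7 bins that held at least 20 junctions the shares were 19.4% of 351 junctions and 11.0% of 1714 positions. Pooled by group the share was 24.0% of 75 in ATM-/-, 20.9% of 134 in KU55933 and 15.0% of 187 in WT libraries. By library it ran from 22.7% to 25.0% in ATM-/-, from 0% to 23.7% in KU55933 and from 6.06% to 18.0% in WT libraries, with as few as 11 junctions in a library. Neighbouring positions share motifs, overlapping bases at a joint blur the bond, and these values are a description with no test.

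Few positions recurred. The 405 junctions had 360 distinct positions and strands, and none repeated within a library. Between libraries 41 were shared, 4 of them by 3 libraries: 114514526, 114514530, 114514724 and 114515040, all on the minus strand. The first 2 lie in the 50-base window printed above. Its 32 junctions came as 5 in ATM-/-, 9 in KU55933 and 18 in WT libraries, 15 of them plus and 17 minus. The authors' numbering of possible PCR repeats marked 4 Se junctions.

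At the joint itself, 221 of 405 Se junctions had 1 to 20 bases that fit both bait and prey (overlap, or microhomology), 75 were direct, 80 had 1 to 20 inserted bases, and 29 had longer values. These come from the authors' gap value for each junction, with values below 0 taken as overlap and above 0 as inserted bases, which the files do not define. A second prey between bait and Se gives a long value too. A single overlapping base was the most common value, in 99 junctions. The overlap share was 50%, 54.1% and 43.8% in ATM-/-, 51.5%, 57.6% and 63.6% in KU55933, and 49.3%, 58.8%, 54.1% and 80.0% in WT libraries. In all other junctions outside chromosome 15 it was 52.4% to 55.7% in ATM-/-, 47.9% to 63.0% in KU55933 and 52.2% to 55.6% in WT libraries.

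The inserted share was 20.8%, 18.9% and 37.5% in ATM-/-, 27.3%, 20.3% and 9.09% in KU55933, and 20.5%, 8.82%, 18.0% and 5.00% in WT libraries, with counts of 1 to 18 junctions behind each. Means were 25.8% ± 10.2 (SD, n = 3) in ATM-/-, 18.9% ± 9.18 (SD, n = 3) in KU55933 and 13.1% ± 7.39 (SD, n = 4) in WT libraries. The exact permutation test of ATM-/- against WT gave p = 0.114 for inserted bases (difference 12.6 percentage points) and 0.257 for overlap (-11.3), with adjusted values of 0.343 and 0.450. For KU55933 against WT it gave 0.400 (5.80) and 0.857 (-2.97), adjusted 0.646 and 0.945. For ATM-/- against KU55933 it gave 0.5 (6.85) and 0.200 (-8.32), adjusted 0.656 and 0.420. A 3 against 3 design cannot go below 0.1. Single libraries decided the size of these differences. For inserted bases, ATM-/- against WT was 6.78 and ATM-/- against KU55933 was 0.975 percentage points without ATM-/- replicate 3, and KU55933 against WT was 1.61 without KU55933 replicate 1. For overlap, ATM-/- against WT was -4.81 without WT replicate 4.

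**Figure D4:**
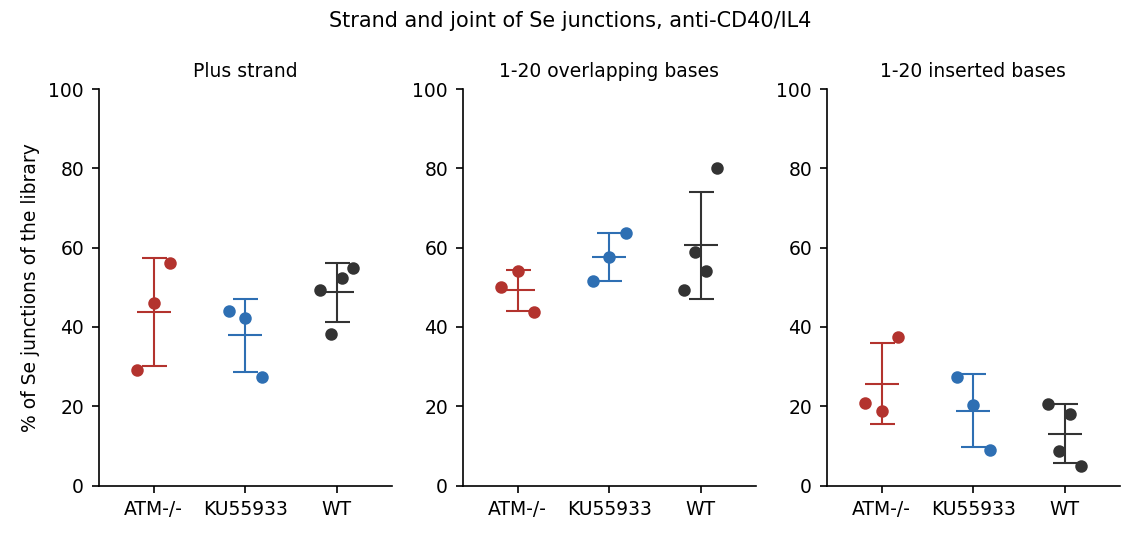
Percent of Se junctions of each anti-CD40/IL4 library (points) that were on the plus strand, had 1 to 20 overlapping bases or had 1 to 20 inserted bases, with group mean and SD (bars), for ATM-/-, KU55933 and WT. The groups overlap in all 3 panels.

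In 6 reads Se was joined together with a second prey. In 2 of them, both with KU55933, a piece of Smu lay between the bait and Se. In the read of KU55933 replicate 2, the Smu piece and the Se piece, both on the minus strand, shared 2 bases at their joint. Their plus-strand bases are shown to let the pieces be seen, with AGCT in capitals.
Smu, chr12:114663755-114663811: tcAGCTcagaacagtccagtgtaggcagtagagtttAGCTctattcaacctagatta
Se, chr12:114515234-114515295: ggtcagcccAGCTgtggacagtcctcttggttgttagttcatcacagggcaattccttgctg
In the other, of KU55933 replicate 1, the Smu and Se pieces were both on the plus strand with 3 inserted bases between them. A further read, in WT replicate 1, held 2 Se pieces on opposite strands, and the other 3 joined Se with places outside the switch regions. Over all reads with several switch region pieces the pairs were Smu with Se in 2 reads, Smu with Smu in 2, and Smu with Sa, Sg1 with Sg3, Sg1 with Sg1 and Se with Se in 1 read each.

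**Figure D5:**
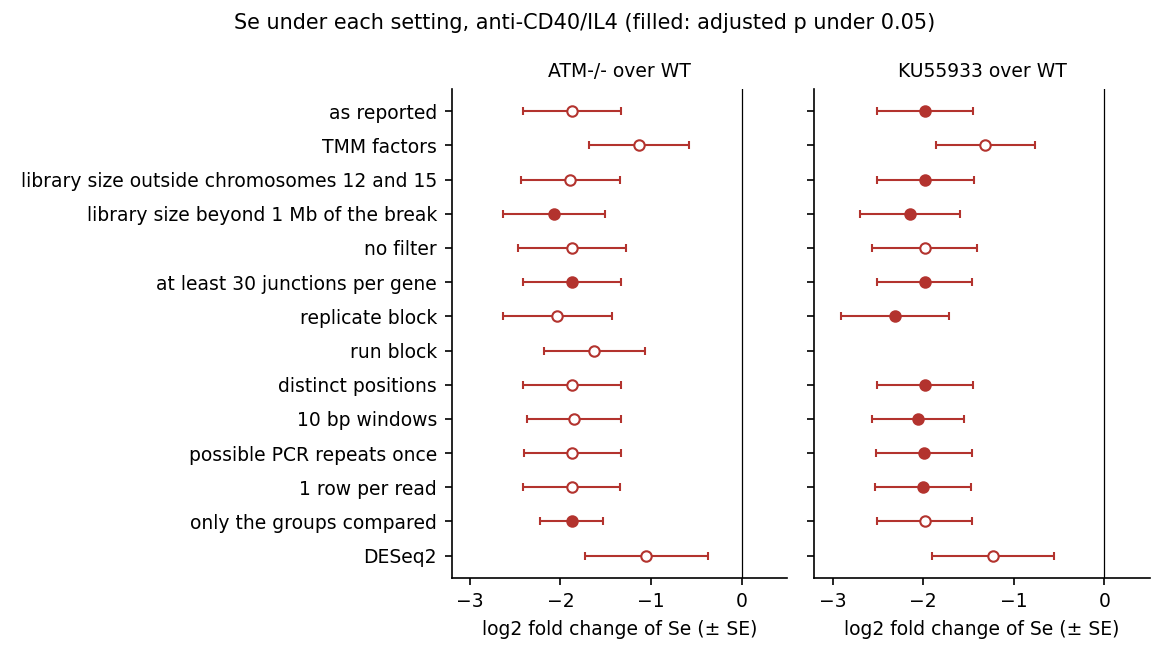
Log2 fold change of Se with its SE (x axis) in the gene tally under each setting other than leaving out a library (rows), for ATM-/- over WT and KU55933 over WT under anti-CD40/IL4, filled where the adjusted p was under 0.05. All values lie below 0, from -2.07 to -1.05 for ATM-/- and from -2.31 to -1.23 for KU55933, for which the run block gave no value.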

How the data were processed

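HTGTS junctions of 16 libraries were read from the authors' deposited tables, 1 junction per row, with prey positions on mm9 per the submitters' processing notes. Per the file headers the 454 tables also hold a count of PCR repeats, which entered no test. Aligner and filters: not given in the sources used here. Genomic DNA was cut with HaeIII, per the labels' protocols, which bears on where a prey ends.

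Rows repeated in every position column were counted once (55 rows) and 3 mitochondrial rows were left out. Se counts are whole numbers of junctions, without normalization. The junction is the prey base next to the bait. Counts per labelled gene were tested with edgeR 4.0.16 in R 4.3.3 (quasi-likelihood, all 16 libraries, at least 10 junctions, library size outside chromosome 15, Benjamini-Hochberg over 162 genes), after tests on simulated data. SE is the log2 fold change over the square root of F. Shares, strand, position and joint were compared by exact permutation over libraries, two-sided, with Benjamini-Hochberg adjustment over 21 tests. Alternatives were TMM, DESeq2 1.42.0, other library sizes, filters, counting rules, blocks and leaving out libraries. Bases came from the prey alignments in the files. Genes named were Se, the other switch regions, 7 AID off-targets and the 3 genes ranked most like Se. The members and lists were chosen with earlier results of these data known. Replicate numbers did not pair the libraries.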

Additional observations from a re-analysis of the deposited data

How the results depend on the processing

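Few junctions per library and 3 or 4 libraries a group limit precision. Of the 54 alternatives to the 6 differences in share, 53 kept direction, and ATM-/- minus KU55933 over all junctions turned sign (-0.000109 percentage points). These permutation tests are too small to pass after adjustment, so their side of the threshold shows nothing of stability. Their unadjusted exact p for ATM-/- and for KU55933 against WT was 0.0286 with 1 Mb, chromosomes 12 and 15 left out, 10-base windows or 1 junction per read, and 0.0857 and 0.171 over all junctions. The 9 alternatives for the switch region share kept direction. Counting distinct positions left strand and position as they were, since none repeated within a library. Of 87 alternatives for Se in edgeR, 79 kept direction and call. Those that did not are grouped here, and the cause was not tested. For ATM-/- over WT, Se became called with library size beyond 1 Mb of the break (-2.07), at least 30 junctions (-1.87) and only the groups compared (-1.87), and 1, 1 and 2 genes were called. For KU55933 over WT, Se lost its call with TMM (-1.31, 10 genes called, all higher), no filter (-1.98, 0 genes), only the groups compared (-1.98, 0 genes) and DESeq2 (-1.23, 0 genes), and at least 30 junctions called 3 genes. For ATM-/- over KU55933, at least 30 junctions called 2 genes and the replicate block 2. For RP105 over anti-CD40/IL4 in WT, the 1 Mb library size called 7 genes and at least 30 junctions 11. In ATM-/-, no filter lost Se (-7.54, 0 genes), and TMM called 9 genes, at least 30 junctions 6, 10-base windows 5 and only the groups compared 5. 

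With 1 library left out at a time, the edgeR log2 fold change of Se ran from -2.06 to -1.67 (ATM-/- over WT), -2.66 to -1.50 (KU55933 over WT, 0 to 4 genes called), -0.38 to 0.78 (ATM-/- over KU55933, 0 to 1 genes), -4.29 to 0 (RP105, ATM-/- over WT), -9.39 to -5.14 (RP105 over anti-CD40/IL4 in WT, 3 to 6 genes), -7.70 to -7.32 (the same in ATM-/-, 0 to 5 genes) and -2.42 to 1.87 (interaction). All values that use the RP105 libraries labelled ATM-/-, which held 0 Se junctions (such as -7.54), and -9.39, without RP105 replicate 3 labelled WT, are set by the fit and are no measured folds. The difference in share ran from -0.360 to 0.457 points (ATM-/- minus KU55933) and -0.0801 to 0 (RP105, ATM-/- minus WT). Strand ran from -11.2 to 2.35 points (ATM-/- minus WT) and -0.305 to 13.2 (ATM-/- minus KU55933), median position from -128 to 26.5 bases (KU55933 minus WT) and -142 to 12.6 (ATM-/- minus KU55933), and overlap from -6.71 to 3.51 points (KU55933 minus WT) and -15.0 to -4.81 (ATM-/- minus WT). Inserted bases ran from 6.78 to 16.1 points (ATM-/- minus WT), 1.61 to 10.7 (KU55933 minus WT) and 0.975 to 11.0 (ATM-/- minus KU55933), and the switch region share from -13.5 to -5.35 (ATM-/- minus WT), -26.3 to -15.6 (KU55933 minus WT) and 6.67 to 17.4 (ATM-/- minus KU55933). RP105 values at 0 are those without replicate 3 labelled WT, which held all 4 junctions. Over 30 pairs of libraries with the same number, deviations correlated at -0.22 to 0.17, with 3 over 0.1, so numbers were not taken as pairs. The replicate block gave -2.03 for ATM-/- over WT (adjusted p = 0.123) and -2.31 for KU55933 over WT (0.0180) in edgeR, changed no call of Se, and gave -3.36 and -3.42 points for the shares. The run block could be fitted only for ATM-/- over WT under anti-CD40/IL4, the same under RP105, and the interaction. Counting possible PCR repeats once and 1 junction per read were chosen after seeing the data and changed no call of Se.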
